A study of Saccharomyces cerevisiae with 12 samples.

Results

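Transcript ratios of 6 flavin-dependent reductases of budding yeast, OYE2, OYE3, LOT6, PST2, YCP4 and RFS1, were compared between a strain lacking ZTA1 and its wild type. The genes were taken by name from the old yellow enzymes and the flavodoxin-like reductases. These families hold enzymes that act on quinones or enones, as the product of ZTA1 does, and the activity of each member was not measured here. All 6 genes were found, each with 1 probe, among 5594 genes measured. The 2 strains were the mutant ∆zta1, defective for ZTA1 (YBR046C), and the wild type FY834α, an alpha strain. Both were grown to exponential phase in rich YPD medium at 30ºC and either left untreated or given 10 mM hydrogen peroxide (H2O2) for 30 min. In each treatment 3 biological replicates of ∆zta1 were each set against a wild-type replicate on 2-colour arrays. The labelled RNA of a pair went onto 2 arrays, the second with the dyes exchanged, giving 12 arrays for 6 pairs. How the gene was disrupted and how many clones were used are not given in the sources used here. Treated and untreated RNA never shared an array, so every value is a log2 ratio of ∆zta1 over wild type within a treatment, and neither expression levels nor the response to peroxide can be read from it.

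Old yellow enzymes carry a flavin mononucleotide and use NADPH to reduce the carbon double bond of enones and enals, reactive compounds that also arise when membrane lipids are oxidised. Flavodoxin-like reductases of the NQO and WrbA type pass electron pairs from NAD(P)H to quinones through the same cofactor, which avoids the semiquinone radicals that would feed superoxide formation. Zeta-crystallin, the product of ZTA1, reduces quinones with NADPH and without a flavin, and yeast cells therefore hold several unrelated enzymes for overlapping substrates. The transcription factor Yap1 drives many of the oxidant-induced genes of yeast, and OYE2, OYE3 and PST2 are among those that oxidants are known to induce.

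ZTA1 itself was low in ∆zta1 on all 12 arrays, with log2 ratios between -6.34 and -3.21. The direction of the ratios was read partly from ZTA1, so its sign is no separate check of the labels. A dye effect was present throughout. Correlated across genes (genes being no independent replicates), arrays labelled the same way round had a median Pearson's r of 0.695, against 0.024 for the 2 arrays within a pair. In what follows a pair mean is the average of its 2 arrays, in which the dye effect cancels, and the dye part is their difference (∆zta1 in Cy5 minus ∆zta1 in Cy3) divided by 2. Untreated replicate 2 stood apart, with 20 genes changed by more than 2-fold against 4 or 5 in each other pair. Tests are limma's moderated tests on the 6 pair means with a spread shared by both treatments, two-sided and adjusted by Benjamini-Hochberg over all 5594 genes. A gene passed at an adjusted p under 0.05.

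None of the 6 reductase genes passed in any of the 4 comparisons. In untreated cells their log2 ratios lay between -0.038 and 0.020 and all had a limma adjusted p of 0.999. There 0.197% of all genes passed. Under H2O2 the ratios lay between -0.11 and -0.019, with adjusted p between 0.585 and 0.915, and 0.215% of all genes passed. For the mean of both treatments the adjusted p was between 0.469 and 0.963, with 0.286% of all genes passing. At an unadjusted p under 0.05, none of the 6 was counted in untreated cells (3.65% of all genes) and 1, YCP4, was counted under H2O2 (8.29% of all genes) and for the mean (9.46% of all genes).

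The intervals show how large a change remained possible. The 95% intervals of the 6 genes reached from a ratio of 0.913 (PST2) to 1.08 (RFS1) in untreated cells and from 0.876 (YCP4) to 1.07 (PST2) under H2O2. For the mean over 6 pairs they reached from 0.914 (YCP4) to 1.05 (OYE3). All 6 intervals held a log2 ratio of 0 in untreated cells, and 5 of 6 did so under H2O2 and for the mean, YCP4 being the exception. The plot of estimates shows these intervals side by side.

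**Figure D1:**
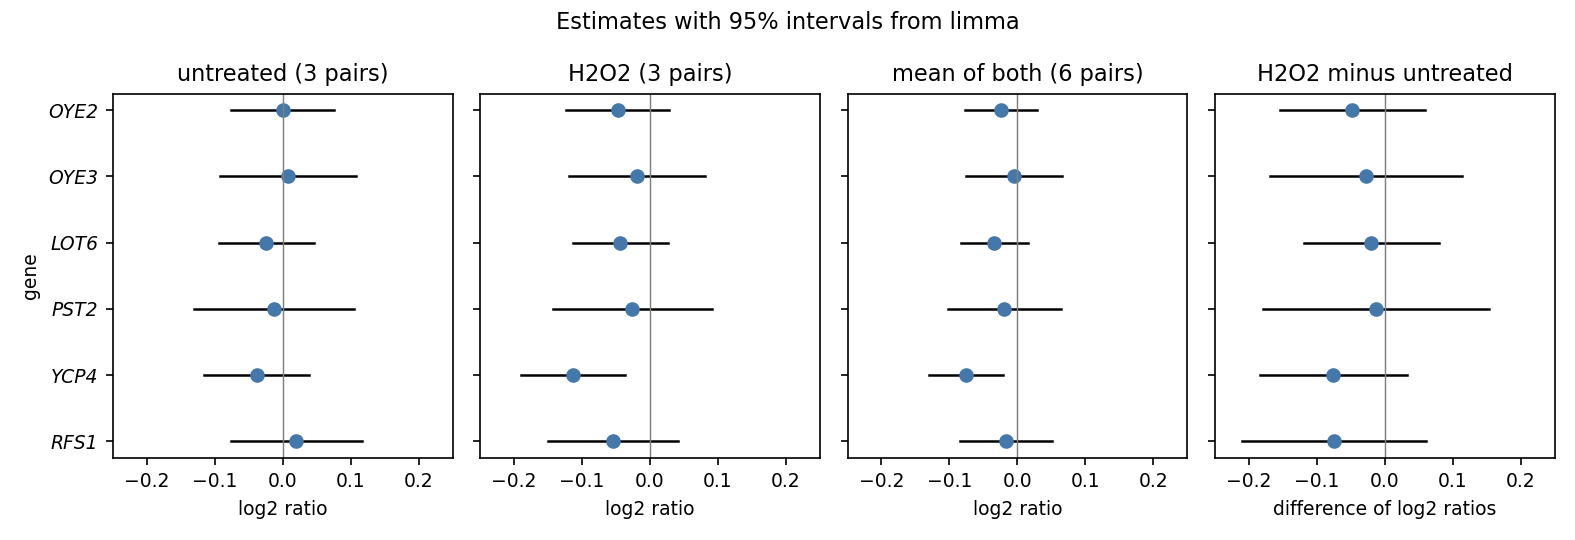
Log2 ratios of ∆zta1 over wild type (points, horizontal axis) with limma's 95% intervals (bars) for the 6 genes (vertical axis) in untreated pairs, H2O2 pairs, their mean, and the difference H2O2 minus untreated. YCP4 under H2O2, at -0.11, and YCP4 for the mean, at -0.076, are the only estimates whose interval does not reach 0.

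OYE2 (YHR179W, chromosome VIII) encodes the more abundant of the old yellow enzymes of budding yeast. Its pair means were 0.033, 0.016 and -0.050 in untreated cells and -0.083, 0.017 and -0.078 under H2O2. The untreated and H2O2 values overlapped, and 3 of the 6 pairs were below 0. The mean log2 ratio was -0.00022 ± 0.044 (SD, n = 3 pairs) in untreated cells (limma adjusted p = 0.999) and -0.048 ± 0.056 (SD, n = 3 pairs) under H2O2 (limma adjusted p = 0.695). Leaving out H2O2 replicate 1 or 2 gave -0.030 and -0.080. OYE2 was the member least touched by the dyes. Its arrays with ∆zta1 in Cy5 and in Cy3 differed little, and its mean dye part was 0.0076, smaller in size than that of 92.7% of all genes.

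OYE3 (YPL171C, chromosome XVI), the paralog of OYE2, stood at -0.043, 0.096 and -0.028 in the untreated pairs and at -0.094, -0.059 and 0.095 in the H2O2 pairs. One pair in each treatment was high and the other two were low. The mean was 0.0083 ± 0.076 (SD, n = 3 pairs) untreated and -0.019 ± 0.10 (SD, n = 3 pairs) under H2O2, with limma adjusted p of 0.999 and 0.915. Without untreated replicate 2, which held the highest untreated value, the untreated mean was -0.035, and it did not pass either way. The direction of OYE3 also turned under H2O2 when replicate 1 (0.018) or replicate 2 (0.000415) was left out.

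The pair OYE2 and OYE3 are close in sequence, so that their probes may share signal. Over the 6 pairs their ratios had a Pearson correlation of 0.0083, given as a description. The spread of OYE3 over pairs (pooled SD 0.089) was above that of 78.7% of genes, while that of OYE2 (0.050) was above 34.3% of genes.

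LOT6 (YLR011W, chromosome XII) encodes an FMN-dependent NAD(P)H quinone reductase that associates with the 20S proteasome. On the arrays with ∆zta1 in Cy5 its log2 ratio was 0.14, 0.18 and 0.23 in untreated cells and 0.18, 0.046 and 0.14 under H2O2. With ∆zta1 in Cy3 it was -0.25, -0.25 and -0.19 in untreated cells and -0.24, -0.22 and -0.17 under H2O2. All 6 arrays of one orientation were therefore above 0 and all 6 of the other below 0, and no array of one overlapped the other. The sign of the ratio thus went with the dye orientation.

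Averaged over the dyes, LOT6 had pair means of -0.057, -0.038 and 0.022 in untreated cells and -0.031, -0.088 and -0.013 under H2O2. These gave -0.024 ± 0.041 (SD, n = 3 pairs) and -0.044 ± 0.039 (SD, n = 3 pairs), with limma adjusted p of 0.999 and 0.695. The untreated mean was -0.0079 without untreated replicate 1 and -0.047 without untreated replicate 3, and the H2O2 mean was -0.022 without H2O2 replicate 2. Its pooled SD over pairs, 0.040, was above that of only 19.1% of genes, so LOT6 was among the more tightly measured genes once the dyes were averaged. Its dye part, 0.19 ± 0.035 (SD, n = 6 pairs), was positive in all 6 pairs, and 4.25% of all genes had a larger one in size.

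A single dye orientation would have given LOT6 opposite calls. With ∆zta1 in Cy5 alone LOT6 had a mean of 0.15 over both treatments (limma adjusted p = 0.00325), and with ∆zta1 in Cy3 alone it had -0.22 (limma adjusted p = 0.00048). RFS1 did the same, at 0.11 (limma adjusted p = 0.0107) and -0.14 (limma adjusted p = 0.0316). In the mean of both treatments 2063 genes passed with ∆zta1 in Cy5 alone and 1477 with ∆zta1 in Cy3 alone, against 16 with the pair means. LOT6 and RFS1 were positive with ∆zta1 in Cy5 and negative with ∆zta1 in Cy3 in every pair, which held for 6.85% of all genes.

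**Figure D2:**
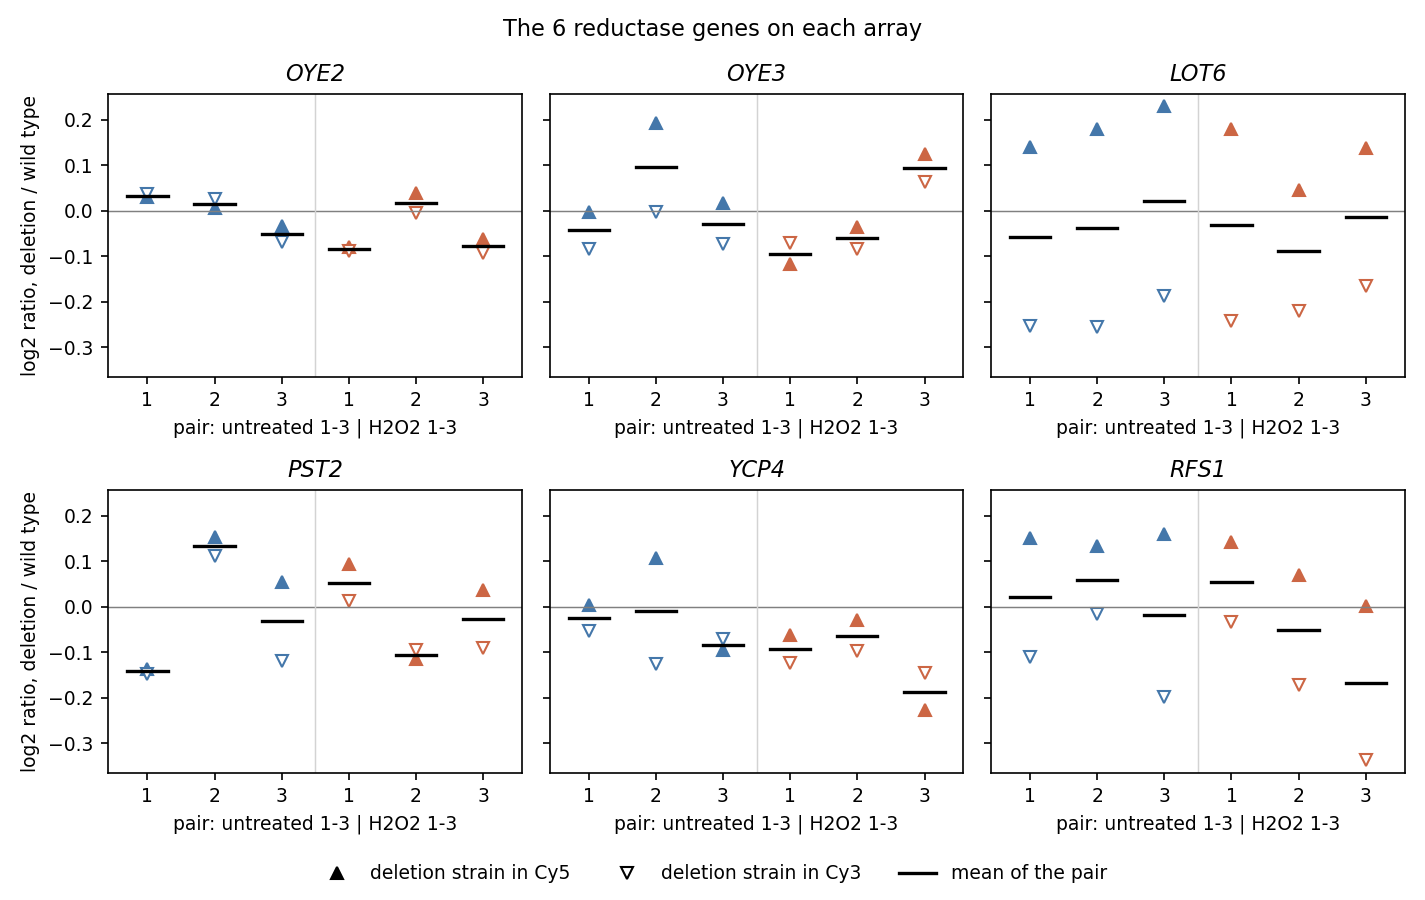
Log2 ratio of ∆zta1 over wild type (vertical axis) of each gene on each of 12 arrays, by pair (horizontal axis: untreated 1 to 3 in blue, then H2O2 1 to 3 in red). Filled triangles have ∆zta1 in Cy5, open triangles have it in Cy3, and bars are pair means. The triangles of LOT6 and RFS1 separate by dye in all 6 pairs, whereas those of OYE2 nearly coincide.

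**Figure D3:**
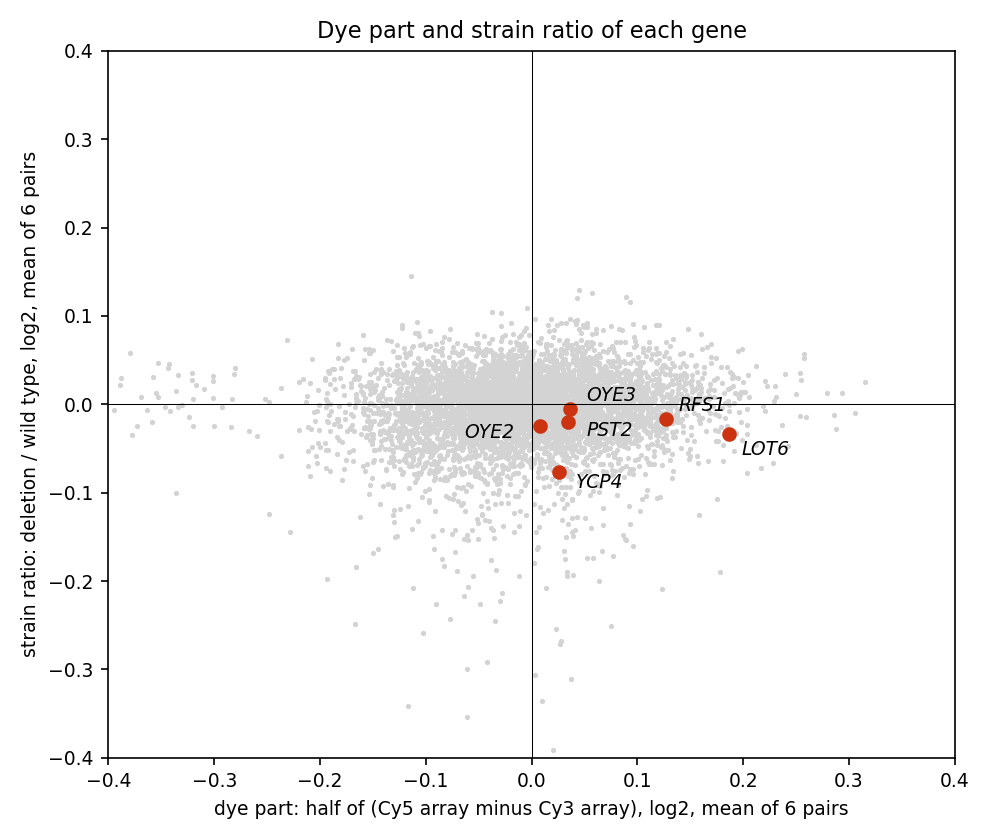
Mean dye part (horizontal axis, log2) against mean strain ratio (vertical axis, log2) over 6 pairs for 5504 genes (grey) and the 6 reductase genes (red). A further 90 genes lie beyond 0.4 on either axis and are not drawn. LOT6, at a dye part of 0.19, lies near the right edge of the genes, and YCP4, at a strain ratio of -0.076, is the lowest of the 6.

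The remaining genes, PST2, YCP4 and RFS1, encode flavodoxin-like proteins of one family, and these proteins have been found with eisosomes, the furrow-forming assemblies of the plasma membrane. YCP4 (YCR004C, chromosome III) had the lowest ratio of the 6 genes in either treatment. Its pair means were -0.024, -0.0079 and -0.083 in untreated cells and -0.092, -0.063 and -0.19 under H2O2. All 6 were below 0, which 3.74% of all genes showed, and the treatments overlapped in their ranges.

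Under H2O2 the log2 ratio of YCP4 was -0.11 ± 0.064 (SD, n = 3 pairs), a ratio of 0.924 with a 95% interval of 0.876 to 0.975. The limma p was 0.00868 before adjustment and 0.585 after it, and 79 of 5594 genes had a smaller one. All 6 of its H2O2 arrays were below 0. The H2O2 value rested in part on replicate 3, without which it was -0.078 (limma adjusted p = 0.519). In untreated cells YCP4 stood at -0.038 ± 0.039 (SD, n = 3 pairs, limma adjusted p = 0.999), with 4 of 6 arrays below 0, and at -0.016 without untreated replicate 3. The mean of both treatments was -0.076 ± 0.024 (SE, n = 6 pairs, limma adjusted p = 0.469). That mean passed with ∆zta1 in Cy3 alone (-0.10, limma adjusted p = 0.0156), and not with ∆zta1 in Cy5 alone (-0.050, limma adjusted p = 0.297). Over all 14 alternative settings its adjusted p ranged from 0.0156 to 0.703.

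PST2 (YDR032C, chromosome IV), whose product is known to be induced by oxidants, varied most between pairs. Its pair means were -0.14, 0.13 and -0.031 in untreated cells and 0.053, -0.11 and -0.026 under H2O2. Its lowest and its highest pair mean both lay in untreated cells, and the 2 arrays of each of these pairs lay on the same side of 0. The means were -0.013 ± 0.14 (SD, n = 3 pairs) and -0.026 ± 0.079 (SD, n = 3 pairs), with limma adjusted p of 0.999 and 0.912. Its pooled SD over pairs, 0.11, exceeded that of 89.5% of genes. Untreated replicate 2, the pair that stood apart, held the high value, and the untreated mean without it was -0.086. Without untreated replicate 1 it was 0.051, and neither passed.

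RFS1 (YBR052C, chromosome II) had pair means of 0.021, 0.059 and -0.019 in untreated cells and 0.054, -0.050 and -0.17 under H2O2. The treatments overlapped, and the H2O2 pairs spread more than the untreated ones. The means were 0.020 ± 0.039 (SD, n = 3 pairs) and -0.055 ± 0.11 (SD, n = 3 pairs), with limma adjusted p of 0.999 and 0.733. Without H2O2 replicate 3 the H2O2 mean was 0.0020, and without H2O2 replicate 1 it was -0.11. The dye part of RFS1 was 0.13 ± 0.042 (SD, n = 6 pairs), with 12.5% of genes larger in size.

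RFS1 lies on the same chromosome arm as ZTA1, with 4 genes of the RefSeq annotation between them. FMP23, directly beside ZTA1, was the only one of these genes to pass, with a mean log2 ratio of 2.15 ± 0.17 (SE, n = 6 pairs, limma adjusted p = 0.000434, or 0.111 with a robust spread). Farther along, RPS11B, a ribosomal protein gene, stood at -0.052, REB1, encoding a DNA-binding factor, at 0.023, and REG2, a regulatory subunit gene of protein phosphatase, at 0.0089, with limma adjusted p of 0.552, 0.776 and 0.963. RFS1, the fifth gene from ZTA1, stood at -0.017 ± 0.030 (SE, n = 6 pairs, limma adjusted p = 0.852).

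As a set, the 6 genes were centred close to 0 in untreated cells and slightly below it under H2O2. The median of the 6 was -0.0067 in untreated cells, with 4 of 6 below 0, beside a median of 0.00052 over all genes, of which 49.4% were below 0. The untreated median was -0.026 without untreated replicate 2, and it turned to 0.0061 without untreated replicate 1 and to 0.010 without untreated replicate 3. Under H2O2 it was -0.046, with 6 of 6 below 0, beside -0.0023 and 52.1% for all genes. In the single H2O2 pairs the median of the 6 was -0.057, -0.061 and -0.052, and in the untreated pairs it was -0.033, 0.038 and -0.030. The H2O2 median was -0.042 with each array centred on its median, -0.0017 with ∆zta1 in Cy5 alone and -0.092 with ∆zta1 in Cy3 alone.

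Whether the effect of losing ZTA1 on these genes depended on peroxide was asked by subtracting the untreated from the H2O2 ratio. The differences were all negative, from -0.013 for PST2 to -0.076 for YCP4, beside 51.4% of all genes below 0. None passed (limma adjusted p = 0.999 for each). The 6 differences come from the same pairs, and those of LOT6, OYE3 and PST2 each changed sign in 2 of 6 fits without 1 pair. No gene of the whole table passed (0% of all genes), and at an unadjusted p under 0.05 none of the 6 was counted, with 1.27% of all genes. YCP4 differed by -0.076 ± 0.048 (SE, n = 6 pairs), RFS1 by -0.075 ± 0.059 (SE, n = 6 pairs) and OYE2 by -0.048 ± 0.047 (SE, n = 6 pairs). The intervals of the 6 differences reached from a 0.864-fold (RFS1) to a 1.11-fold (PST2) change in ratio. In no member did the untreated and the H2O2 pairs separate, while 2.88% of all genes separated with H2O2 lower and 2.66% with H2O2 higher.

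The members were also compared with each other from pair to pair. Over the 6 pair means the 15 correlations between members ran from -0.66 (OYE2 with LOT6) to 0.83 (YCP4 with RFS1), with OYE2 and YCP4 at 0.80. These correlations are descriptions over 6 points that share arrays and mix both treatments. The genes whose 6 pair means were most like those of each member by Pearson's r were ASG7, DPB2 and ERG9 for OYE2, MF(ALPHA)1, WRS1 and BRX1 for OYE3, and SEC17, HRK1 and BXI1 for LOT6. For PST2 they were STF1, YGL081W and AIM10, for YCP4 GET3, HRI1 and VPS25, and for RFS1 UBP9, VPS21 and RRM3. The highest r was 0.990, for YCP4 with GET3, and the lowest of the first-ranked was 0.977, for RFS1 with UBP9. Over all genes the median of the highest r was 0.989, so that likeness of this degree was ordinary with 6 points.

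Other reductases were described for comparison. Among 14 medium-chain reductases related to ZTA1, none passed in either treatment. Their median log2 ratio was -0.037 in untreated cells (11 of 14 below 0, beside 49.4% of all genes). Under H2O2 it was -0.058 (12 of 14 below 0, beside 52.1% of all genes). The medians were -0.018 without untreated replicate 3 and -0.037 without H2O2 replicate 3. The genes with the smallest p were BDH1, a butanediol dehydrogenase, with a mean over both treatments of -0.11 (limma adjusted p = 0.48), or -0.060 without untreated replicate 2, and ADH7, an NADPH-dependent alcohol dehydrogenase, with -0.053 (limma adjusted p = 0.518). Among 17 measured short-chain and aldo-keto reductases none passed, and the medians were -0.043 and -0.021. The first was -0.027 without untreated replicate 2, and leaving out H2O2 replicate 1 or 3 gave -0.051 and 0.0028 for the second. YDR541C, an aldehyde reductase gene, was lowest in p with a mean of -0.12 (limma adjusted p = 0.125), followed by ARA1, an arabinose dehydrogenase, with -0.10 (limma adjusted p = 0.318). YDR541C, ARA1, BDH1 and ADH7 were each below 0 in 6 of 6 pairs, which 3.74% of all genes showed. YDR541C passed when all 12 arrays were fitted with a dye term (limma adjusted p = 0.0126) or with ∆zta1 in Cy5 alone (limma adjusted p = 0.00127). It did not pass in the other settings, where its limma adjusted p ran from 0.0901 to 0.555.

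**Figure D4:**
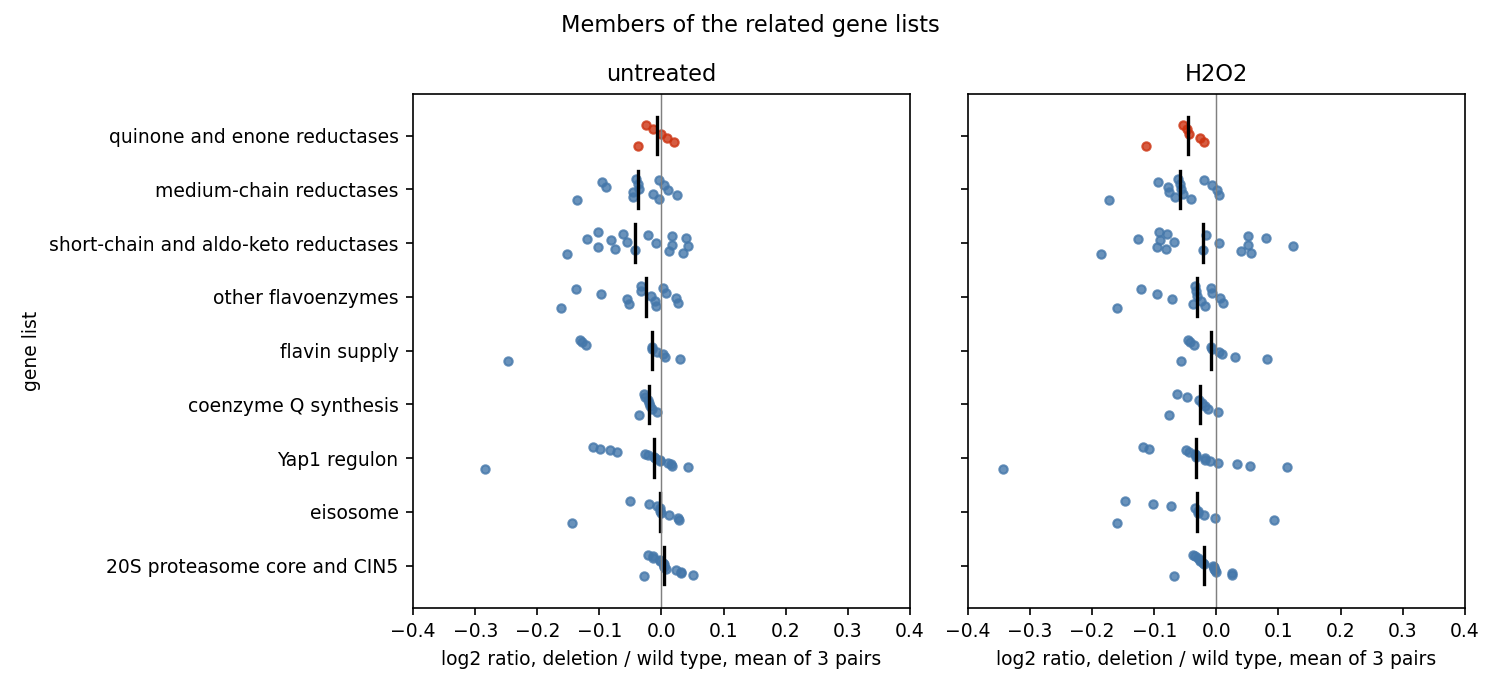
Mean log2 ratio of ∆zta1 over wild type (horizontal axis) of every measured gene of 9 lists (vertical axis) in untreated and H2O2 pairs. Points are genes, bars are list medians, and the 6 quinone and enone reductases are in red. The H2O2 medians of the 9 lists lie between -0.058 and -0.0079, and SRX1 of the Yap1 list, at -0.34 under H2O2, is the lowest point.

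Genes that supply or share the flavin cofactor gave no calls with the pair means. None of 10 genes of riboflavin, FMN and FAD supply passed, with medians of -0.015 untreated and -0.0079 under H2O2. The untreated median was -0.00095 without untreated replicate 2 and -0.034 without untreated replicate 3, and leaving out H2O2 replicate 2 or 3 gave -0.0036 and -0.023 for the H2O2 median. RIB5, riboflavin synthase, had a mean over both treatments of -0.15 and RIB1, GTP cyclohydrolase II, of -0.059 (limma adjusted p = 0.638 and 0.595). Both rested largely on untreated replicate 2, without which they were -0.012 and -0.028, and RIB5 stood at -0.24 without untreated replicate 1, where RIB1 stood at -0.089. None of 14 other flavoenzymes passed, with medians of -0.024 and -0.032, or -0.038 without untreated replicate 1 and -0.015 without H2O2 replicate 3. NDE2, an external mitochondrial NADH dehydrogenase that reduces ubiquinone, stood at -0.15 (limma adjusted p = 0.307). ERO1, the thiol oxidase of the endoplasmic reticulum, stood at -0.089 (limma adjusted p = 0.548), or -0.035 without H2O2 replicate 1. Both were below 0 in 6 of 6 pairs, which 3.74% of all genes showed. NDE2 passed with ∆zta1 in Cy5 alone (-0.11, limma adjusted p = 0.0374) and in Cy3 alone (-0.19, limma adjusted p = 0.024). ERO1 passed in Cy5 alone (-0.13, limma adjusted p = 0.0298) and not in Cy3 alone (-0.047, limma adjusted p = 0.488). The 8 measured genes of coenzyme Q synthesis, which makes the cell's main quinone, all lay below 0 in untreated cells, beside 49.4% of all genes. Under H2O2 7 of 8 did so, beside 52.1% of all genes. Their medians were -0.020 untreated and -0.026 under H2O2. The untreated median was -0.033 without untreated replicate 2. None passed, and the genes with the smallest p were COQ2 (-0.042, limma adjusted p = 0.548) and COQ5 (-0.048, limma adjusted p = 0.584, and 0.15 in the opposite direction with ∆zta1 in Cy3 alone).

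Of 15 listed genes, YAP1 itself and others under Yap1, 1 fell under H2O2 and none rose (0.215% of all genes passed). The gene that fell was SRX1, sulfiredoxin, with -0.34 in H2O2 pairs (limma adjusted p = 0.0152) and -0.084 in untreated pairs (limma adjusted p = 0.999). The Yap1 medians were -0.012 untreated and -0.032 under H2O2. The untreated median was 0.0026 without untreated replicate 1, -0.022 without untreated replicate 2 and -0.026 without untreated replicate 3, and leaving out H2O2 replicate 1 or 3 gave -0.082 and 0.0044 for the H2O2 median. SRX1 did not pass under H2O2 when any 1 of the H2O2 pairs was left out (limma adjusted p = 0.14, 0.12 and 0.0684). Among 10 eisosome genes none passed, with medians of -0.0021 and -0.032. Their directions were not stable, since the untreated median was 0.011, 0.014 and -0.033 without untreated replicate 1, 2 and 3, and the H2O2 median was -0.056, -0.065 and 0.0055 without H2O2 replicate 1, 2 and 3. NCE102, a membrane protein needed for eisosome organisation, stood at -0.15 for the mean (limma adjusted p = 0.334) and SLM2, a membrane-binding regulator, at 0.060 (limma adjusted p = 0.48, and -0.14 with ∆zta1 in Cy3 alone). For LOT6's partners, the 14 core subunits of the 20S proteasome together with CIN5, the gene of the factor Yap4, none of 15 genes passed and the medians were 0.0036 and -0.020. The untreated median was 0.0072, -0.011 and 0.015 without untreated replicate 1, 2 and 3, and leaving out H2O2 replicate 2 or 3 gave -0.034 and 0.0011 for the H2O2 median. CIN5 stood at -0.048 (limma adjusted p = 0.576), or -0.030 without untreated replicate 2. PUP2 stood at -0.024 (limma adjusted p = 0.712), with -0.036 without untreated replicate 2 and -0.013 without untreated replicate 3.

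Markers of mating type were described because the wild type is an alpha strain. None of 7 a-cell markers and none of 5 alpha-cell markers passed in either treatment. The a-cell medians were 0.0084 untreated and -0.055 under H2O2, with STE2 at -0.063 and MFA1 at -0.056 for the mean. Without H2O2 replicate 2 STE2 was -0.040, MFA1 was -0.012 and the H2O2 median was -0.021. The untreated a-cell median was -0.0064, 0.020 and 0.0050 without untreated replicate 1, 2 and 3. The alpha-cell medians were 0.046 untreated (0.089 without untreated replicate 1 and -0.073 without untreated replicate 2) and -0.092 under H2O2 (-0.057 without H2O2 replicate 1 and -0.15 without H2O2 replicate 3), with MF(ALPHA)1 at -0.073 and STE3 at -0.056 for the mean (0.061 for STE3 with ∆zta1 in Cy3 alone). STE3 was -0.019 without untreated replicate 1, -0.089 without untreated replicate 2 and -0.037 without H2O2 replicate 1. For the mean, MF(ALPHA)1 and STE3 were the only 2 of 5 alpha-cell markers below 0, beside 51.8% of all genes. The 5 had a median of 0.0034 for the mean, or -0.089 without untreated replicate 2. Of the a-cell markers 5 of 7 lay below 0 for the mean, with a median of -0.022. Under H2O2 the mean ratios of 6 of 7 a-cell and 5 of 5 alpha-cell markers lay below 0, beside 52.1% of all genes. Those of the 6 reductase genes did so too, and the part of the markers in the reductase values was not tested. Without intensities the markers' own levels in either strain were not known.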

How the data were processed

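The authors deposited log2 ratios of 6256 probes on 12 arrays. The submitters' processing notes name limma, with no version, and the authors' background correction, normalisation and direction are not given in the sources used here. Base 2 and the direction ∆zta1 over wild type, also on dye-swapped arrays, were read from the titles, from limma's convention and from ZTA1. Column medians lay between -0.017 and 0.017. Intensities were not used here, so signal over background is unknown, and precision is limited by how many arrays there are.

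Of the probes, 5620 have 1 gene in the platform annotation, none has several and 636 have none. Names were updated through RefSeq assembly R64. Probes of a gene were averaged, leaving 5594 genes. Where title and description gave different replicate numbers (1 array per treatment), titles were followed. The arrays of a pair were averaged, and limma 3.58.1 in R 4.3.3 (lmFit, eBayes) was fitted to 6 pair means with 4 residual degrees of freedom and tested on simulated data.

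The members and the 11 gene lists, from textbook knowledge, were chosen with earlier results of these data known. AAD16 and COQ7 had no named probe. The text names the members, the genes of a list that passed (otherwise the 2 with the smallest p for the mean), the 3 genes most like each member, and the genes between ZTA1 and RFS1. Alternatives were centring, scaling, each dye alone, all 12 arrays with a dye term, a replicate block, robust eBayes, separate probes, separate treatments and leaving out each pair. The labels call the pairs biological replicates.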

Additional observations from a re-analysis of the deposited data

How the results depend on the processing

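The count of members that passed was 0 in every comparison under all alternatives but the single dye orientations. With ∆zta1 in Cy5 alone 2 members passed in untreated cells and 2 for the mean, LOT6 and RFS1 each time. With ∆zta1 in Cy3 alone 1 passed in untreated cells and 1 under H2O2, LOT6 both times, and 3 passed for the mean, namely LOT6, RFS1 and YCP4. Each of these fits holds 1 dye orientation, in which the dye part does not cancel. All genes passing numbered 906 untreated, 929 under H2O2 and 2063 for the mean in Cy5 alone, and 562, 420 and 1477 in Cy3 alone, against 11, 12 and 16. With all 12 arrays and a dye term 30 genes passed for the mean. Under H2O2 7 passed without H2O2 replicate 1 and 6 without H2O2 replicate 3, and 3 passed for the difference without untreated replicate 2 against 0.

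Directions turned as follows, in genes that passed in no fit of pair means. With ∆zta1 in Cy5 alone LOT6 stood at 0.18 untreated, 0.12 under H2O2 and 0.15 for the mean, RFS1 at 0.071 under H2O2 and 0.11 for the mean, PST2 at 0.025, 0.0052 and 0.015, OYE3 at 0.030 for the mean, REB1 at -0.048 for the mean, and OYE2 at 0.00096 and YCP4 at 0.0061 untreated. With ∆zta1 in Cy3 alone OYE3 was -0.053 and RFS1 -0.11 untreated, the difference was 0.022 for LOT6 and 0.023 for OYE3, and the mean was 0.15 for COQ5, -0.14 for SLM2 and 0.061 for STE3. OYE2 untreated was 0.00053 with arrays centred and 0.00058 with arrays scaled. Leaving out 1 pair at a time gave, untreated, -0.017 to 0.025 for OYE2, -0.035 to 0.034 for OYE3 and -0.086 to 0.051 for PST2. Under H2O2 it gave -0.077 to 0.018 for OYE3, -0.066 to 0.014 for PST2 and -0.11 to 0.0020 for RFS1. For the mean it gave -0.034 to 0.013 for OYE3, -0.056 to 0.012 for PST2 -0.044 to 0.011 for RFS1 and -0.054 to 0.052 for REG2, and for the difference -0.036 to 0.0032 for LOT6, -0.085 to 0.016 for OYE3 and -0.077 to 0.060 for PST2. SRX1 passed for the mean (limma adjusted p = 0.0243) and failed in 5 of 6 such fits, with values from -0.23 to -0.19.

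Replicate numbers are shared by the treatments. Deviations of same-numbered pairs correlated across genes at -0.014, 0.031 and -0.27, and those of differently numbered pairs at -0.14 to 0.26. With 3 pairs per treatment, and ratios in which anything shared by both strains cancels, this cannot show whether the numbers paired the samples. With the replicate block no member passed (0 in each comparison), and 10, 10, 13 and 0 genes passed in untreated cells, under H2O2, for the mean and for the difference. The first-ranked likeness partners had r down to 0.27 in other settings, for LOT6 with SEC17 in Cy3 alone.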
